A study of Mus musculus with 8 samples.

Results

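Ago2 and 6 genes that flank it on mouse chromosome 15 (Trappc9, Chrac1, Ptk2, Dennd3, Slc45a4 and Ptp4a3) were examined. These genes were chosen by their place in the genome, with earlier results of these data known, and matched by symbol to their Ensembl identifiers. They are 7 of the 55487 genes counted, and all 7 passed the filter on low counts that left 14228 genes for testing. RNA had been sequenced from LLC cells, a mouse lung carcinoma line grown in culture, in 4 wild-type libraries and 4 Ago2 knock-out (ΔAgo2) libraries, each given as a biological replicate and all 8 given the same batch. Both genotypes were grown in DMEM GlutaMAX with serum for embryonic stem cells and penicillin-streptomycin, and no treatment is given. The ΔAgo2 cells were made with a lentiviral CRISPR-Cas9 vector carrying 1 guide against Ago2, puromycin selection and sorting of single cells. How many clones gave the 4 libraries is not stated, and no line with an empty vector is among the samples, so clone and genotype cannot be told apart. Nothing states what was separate between replicates, so the p-values measure the spread between these libraries.

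AGO2 belongs to the Argonaute proteins, which bind microRNAs in the RNA-induced silencing complex (RISC), and among mammalian Argonautes it is the one with strong slicing activity. Part of the interval around the gene is imprinted in mouse brain: the non-coding RNA Peg13, which lies inside an intron of Trappc9, is transcribed from the paternal chromosome, and neighbours such as Kcnk9 are biased to the maternal one. Alleles cannot be read from the gene counts used here. The flanking genes have unrelated roles in chromatin remodelling, vesicle traffic, adhesion signalling, transport and phosphatase activity, so the group is one of position, not of pathway.

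In GRCm38 (mm10) the genes lie on chromosome 15 in the order Trappc9, Chrac1, Ago2, Ptk2, Dennd3, Slc45a4, Ptp4a3. Trappc9 (ENSMUSG00000047921) runs on the minus strand from 72589620 to 73061204. Chrac1 (ENSMUSG00000068391) runs on the plus strand from 73090392 to 73097554. Ago2 (ENSMUSG00000036698) runs on the minus strand from 73095844 to 73184935. The ends of Chrac1 and Ago2 meet tail to tail, and 219 bp of exon are shared on opposite strands, which is 9.31% of the exon length of Chrac1 and 1.56% of that of Ago2. Whether the gene counting used strand is not given in the sources used here, so reads in those 219 bp could have been assigned to either gene or dropped. Ptk2 (ENSMUSG00000022607) lies on the minus strand from 73205102 to 73423280, Dennd3 (ENSMUSG00000036661) on the plus strand from 73512560 to 73572242, Slc45a4 (ENSMUSG00000079020) on the minus strand from 73577424 to 73645762 and Ptp4a3 (ENSMUSG00000059895) on the plus strand from 73723145 to 73758766. No other annotated gene shares exon sequence with these 4 or with Trappc9.

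The 4 wild-type libraries held 40740643 to 68530912 counts each, and the 4 ΔAgo2 libraries held 39628101 to 57595675. Wild-type replicate 4 stood apart: its median Spearman correlation with the other libraries of its genotype was 0.864, against 0.948 to 0.961 for the other wild-type libraries and 0.985 to 0.986 for the ΔAgo2 libraries. How far a gene deviated there from the rest of wild-type followed its GC content (Spearman rho 0.74 across tested genes, which are not independent replicates). The same deviation had a Spearman rho of -0.308 with exon length. The mitochondrial share of counts was 0.540% there and 2.39% to 4.51% in the others. The contrast of each of the 7 genes is therefore also given without this library. Mesenchymal markers (Vim, Cdh2 and Fn1) summed to 4796 to 8334 CPM (counts relative to TMM-scaled library sizes) in wild-type and 6709 to 7577 in ΔAgo2. The epithelial list summed to 114 to 1259 and 313 to 509, nearly all from Krt8 and Krt18. Of the rest of that list, Krt19 had 712 counts in all, Cdh1 had 39, and Epcam was at or under 3 counts in every library. The lung epithelial markers Nkx2-1, Sftpc, Sftpb and Scgb1a1 were all at or under 3 counts, as were the leukocyte markers Ptprc and Cd3e. Cd68, a lysosomal protein abundant in macrophages, had 6825 counts in all, at 5.30 to 38.3 CPM in wild-type and 4.56 to 16.5 in ΔAgo2. The endothelial list summed to 0.0621 to 0.569 CPM in wild-type and 0.227 to 0.974 in ΔAgo2, and the fibroblast list to 12.0 to 76.4 and 38.0 to 88.2. Whether any of these levels had a part in the results was not tested.

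Ago2 RNA was present in every library of both genotypes. In wild-type replicates 1 to 4, Ago2 was at 306.02, 269.7, 519.5 and 119 CPM, from 15049, 19033, 34965 and 3842 counts. In ΔAgo2 replicates 1 to 4 it was at 389, 293, 408 and 316 CPM, from 23871, 12319, 16662 and 16715 counts. All 4 ΔAgo2 values fell inside the wild-type range, which was set by replicates 3 and 4. The means were 303.6 ± 165 CPM (SD, n = 4) in wild-type and 352 ± 55.8 (SD, n = 4) in ΔAgo2, a log2 fold change (ΔAgo2 minus wild-type) of 0.21 with a standard error of 0.40 and a 95% interval of -0.67 to 1.09. The adjusted p was 0.908 (two-sided quasi-likelihood test of edgeR, with Benjamini-Hochberg adjustment over all tested genes, used for every adjusted p in the text unless another is named). Without wild-type replicate 4, the wild-type mean was 365 ± 135 CPM (SD, n = 3), the log2 fold change was -0.05 and the interval was -0.62 to 0.52. A count per gene does not read a short insertion or deletion at a guide's cut site, so the level of Ago2 RNA checks neither the knock-out nor the labels, and the genotype of each library rests on its label. The paper gives a western blot of Ago2 protein in wild-type and ΔAgo2 LLC cells, which was not examined here. In RNA from a whole culture, fewer cells with a transcript and less transcript per cell cannot be told apart.

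**Figure D1:**
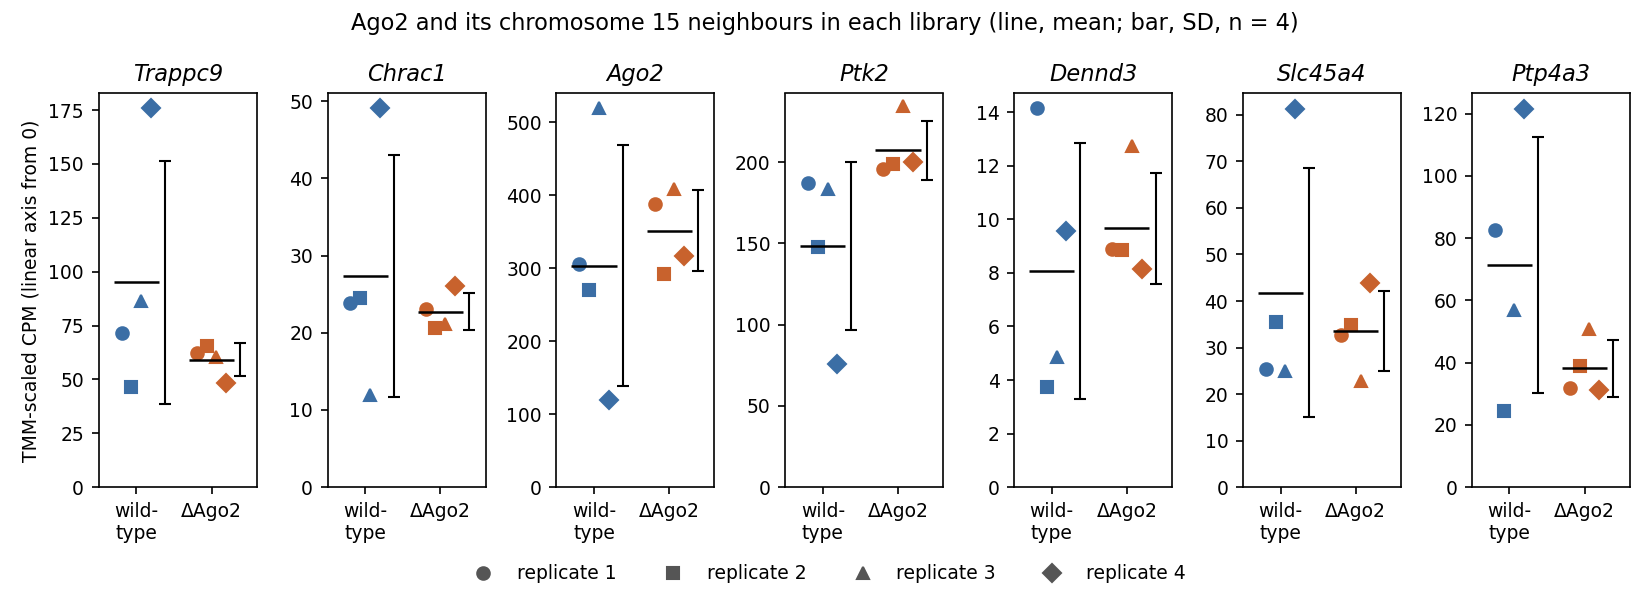
Level of each of the 7 genes in every library, in CPM on a linear axis from 0 that differs between panels, with genes in chromosomal order. Points are libraries, marked by replicate number, lines are means and bars are SD (n = 4). Ptk2 is the gene whose 4 ΔAgo2 points, from 196 to 234 CPM, all lie above its wild-type points, and wild-type replicate 4 is the highest point for Trappc9, Chrac1, Slc45a4 and Ptp4a3 and the lowest for Ago2 and Ptk2.

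The genes on the Trappc9 side of Ago2 were next. Chrac1 encodes a small histone-fold protein of the CHRAC chromatin-remodelling complex. In wild-type replicates 1 to 4 it was at 23.8, 24.6, 11.9 and 49.1 CPM, and in ΔAgo2 replicates 1 to 4 at 23.1, 20.7, 21.2 and 26.0 CPM. Wild-type replicates 3 and 4 lay below and above everything else, and the ΔAgo2 libraries sat between them. The log2 fold change was -0.27 ± 0.39 (SE), with an interval of -1.13 to 0.60 and an adjusted p of 0.875, and it was 0.19 without wild-type replicate 4.

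Trappc9 encodes a subunit of TRAPPII, a complex that acts in vesicle traffic at the Golgi. It was at 71.7, 46.6, 86.3 and 176 CPM in wild-type replicates 1 to 4 and at 62.4, 65.7, 60.4 and 48.1 CPM in ΔAgo2 replicates 1 to 4. Wild-type replicate 4 held the highest level and wild-type replicate 2 the lowest, so the ΔAgo2 values again lay within the wild-type range. The log2 fold change was -0.68 ± 0.38 (SE; interval -1.54 to 0.17), with an adjusted p of 0.731. Without wild-type replicate 4 it was -0.20 (interval -0.69 to 0.29). Peg13, in the Trappc9 intron on the same strand, had 13.2 ± 6.98 CPM (mean ± SD, n = 4) in the wild-type libraries and 10.6 ± 4.397 (SD, n = 4) in the ΔAgo2 libraries, with a log2 fold change of -0.32 and an adjusted p of 0.862.

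Ptk2, on the other side of Ago2, encodes focal adhesion kinase (FAK), which transmits signals from integrins. Its wild-type replicates 1 to 4 were at 187, 148, 183 and 75.8 CPM, and its ΔAgo2 replicates 1 to 4 at 196, 199, 234 and 200.3 CPM. Each ΔAgo2 library lay above each wild-type library, with 187 and 196 CPM as the nearest values of the 2 genotypes. The groups gave p = 0.0286 in the exact permutation test over libraries (two-sided, on log2 CPM), the smallest p that 4 against 4 can give and the value that any gene without overlap has. The test was run for each of the 7 genes, without correction, and the other 6 had p from 0.229 to 0.743 (exact permutation test). The fitted log2 fold change was 0.48 ± 0.31 (SE), its interval ran from -0.20 to 1.17, and the adjusted p of 0.740 did not pass. Without wild-type replicate 4, the lowest of the wild-type libraries for this gene, the log2 fold change was 0.27 (interval -0.07 to 0.62, adjusted p = 0.503). The microRNA gene Mir151 lies in an intron of Ptk2 and had 1 count over all 8 libraries, in a library type that does not keep mature microRNAs.

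Dennd3 encodes a DENN-domain protein, an exchange factor that activates Rab12, and was the lowest of the 7 genes. It was at 14.2, 3.74, 4.86 and 9.56 CPM in wild-type replicates 1 to 4, and at 8.91, 8.86, 12.7 and 8.15 CPM in ΔAgo2 replicates 1 to 4. The highest wild-type library here was replicate 1, and the ΔAgo2 libraries lay inside the wild-type range. The log2 fold change was 0.26 ± 0.44 (SE; interval -0.71 to 1.23; adjusted p = 0.895), and 0.37 without wild-type replicate 4. It was lowest, at 0.0116, when wild-type replicate 2 was left out, and highest, at 0.68, when replicate 1 was.

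Slc45a4 encodes a membrane transporter of the SLC45 family. Its levels were 25.3, 35.6, 24.98 and 81.3 CPM in wild-type replicates 1 to 4 and 32.7, 34.9, 22.7 and 43.8 CPM in ΔAgo2 replicates 1 to 4. The ΔAgo2 values interleaved with those of wild-type replicates 1 to 3, with 1 ΔAgo2 library below all of wild-type, and wild-type replicate 4 lay above all others. The log2 fold change of -0.32 ± 0.41 (SE; interval -1.23 to 0.60; adjusted p = 0.857) became 0.23 without that library.

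Ptp4a3 encodes PRL-3, a prenylated phosphatase studied in metastasis, and had the fold change farthest from 0 of the 7 genes. Its wild-type replicates 1 to 4 were at 82.7, 24.4, 57.0 and 122 CPM and its ΔAgo2 replicates 1 to 4 at 31.7, 39.0, 50.7 and 31.3 CPM. Of the wild-type libraries, 3 lay above all 4 ΔAgo2 libraries and replicate 2 lay below all 4. The means were 71.4 ± 41.1 CPM (SD, n = 4) and 38.2 ± 9.07 (SD, n = 4), with a log2 fold change of -0.90 ± 0.43 (SE; interval -1.87 to 0.06; adjusted p = 0.706). Without wild-type replicate 4 the difference was -0.50 (interval -1.31 to 0.30).

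Of the 7 genes, 0 passed an adjusted p of 0.05 in edgeR's quasi-likelihood test, against 42 of 14228 tested genes (0.295%), of which 11 were higher and 31 lower in ΔAgo2. At an unadjusted p under 0.05, 0 of the 7 were counted, against 1045 of all tested genes (7.34%). DESeq2, limma on TPM and limma with sample weights also called 0 of the 7. Groups that did not overlap were seen for 1 of the 7, Ptk2, against 863 of all tested genes (6.07%). The log2 fold change was above 0 for 3 genes (Ago2, Ptk2 and Dennd3) and below 0 for 4, with a median of -0.27, and over all tested genes 41.2% were above 0 and the median was -0.11. Over 19 alternative settings none of the 7 was called in any, and the lowest adjusted p was 0.211, for Ptp4a3. Trappc9, Ptk2, Dennd3 and Ptp4a3 kept their sign in all 19, while Ago2 changed sign in 1, Chrac1 in 6 and Slc45a4 in 4. For Chrac1 and Slc45a4 this counts limma on TPM, where the median of all tested genes was above 0 and each gene lay below it.

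**Figure D2:**
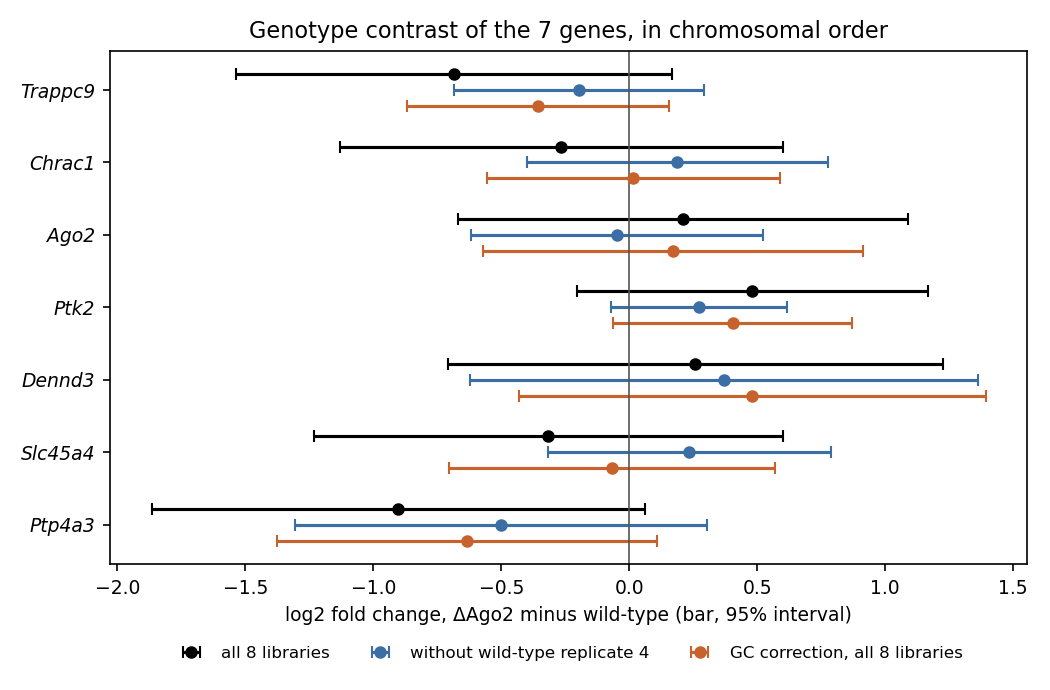
Log2 fold change (ΔAgo2 minus wild-type) of the 7 genes in chromosomal order, with 95% intervals, for all 8 libraries, without wild-type replicate 4, and after each library was corrected for GC content. Every interval shown includes 0, and except for Dennd3 the intervals are narrower without replicate 4 than with it.

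The spread between libraries was wider in wild-type than in ΔAgo2 for all 7 genes. For Ago2 the SD of log2 CPM was 0.88 in wild-type and 0.23 in ΔAgo2, and for Ptk2 0.61 and 0.12. Over all tested genes, 93.3% had the larger SD in wild-type, and the median SD was 0.78 in wild-type and 0.23 in ΔAgo2, so the wide wild-type spread was not particular to the interval. Without wild-type replicate 4 the median wild-type SD was 0.43, and 6 of the 7 genes still had the larger SD in wild-type.

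In wild-type replicate 4 the 7 genes differed from the other wild-type libraries in 2 directions. Ago2 and Ptk2, with a GC content of 48.9% and 48.0% in their longest coding transcripts, were lower there than in the mean of the other wild-type libraries, by -1.55 and -1.18 on the log2 scale. The other 5 genes, with a GC content of 53.0% to 55.4%, were higher there, from 0.58 for Dennd3 to 1.53 for Slc45a4. Genes with 45% to 50% GC had a median of -0.56 in the same contrast and genes with 50% to 55% GC a median of 0.59. Genes above 55% GC, where Trappc9 and Dennd3 lie, had a median of 1.31. Each of the 7 genes had the sign of the median of its bin, but Ago2, Ptk2 and Dennd3 lay below that median. The median GC content of tested genes was 49.95%, a little above that of Ago2 and Ptk2. In bins of 2% GC, the bin centred on 49%, where Ago2 lies, had a median of -0.22 and a lower quartile of -0.98. Once each library was corrected for GC content, the log2 fold changes between genotypes were 0.17 for Ago2, 0.02 for Chrac1, -0.36 for Trappc9, 0.40 for Ptk2, 0.48 for Dennd3, -0.07 for Slc45a4 and -0.63 for Ptp4a3. After that correction Ago2 and Ptk2 were still lower in wild-type replicate 4, by -1.25 and -0.67. Dennd3 turned to -0.45, and the others stayed higher, from 0.42 for Trappc9 to 0.88 for Slc45a4. Ago2 and Ptk2 also had the longest total exon length of the 7 genes, 14031 and 11803 bp. The part of GC content in each gene's own difference was not tested beyond this correction, and that of length was not tested.

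**Figure D3:**
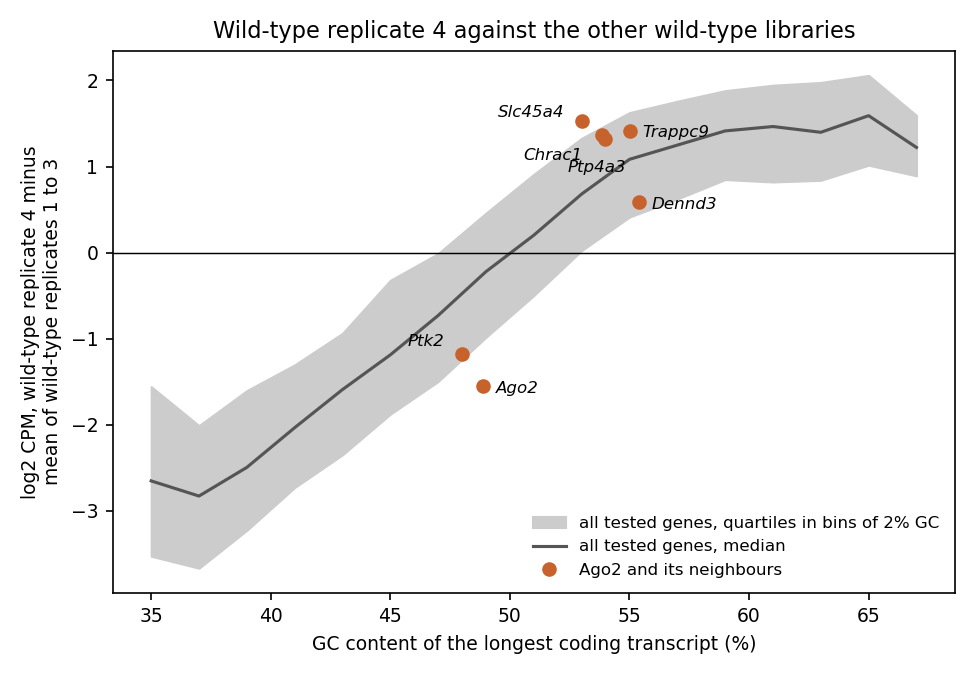
Difference of wild-type replicate 4 from the mean of wild-type replicates 1 to 3 (log2 CPM) against the GC content of each gene's longest coding transcript, with all tested genes as a median line and a band of quartiles. Ago2 and Ptk2, with a GC content a little under the median of tested genes, lie below 0. The other 5 genes, with a GC content over that median, lie above 0. Ago2 lies below the band of quartiles and Slc45a4 above it.

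Levels were compared between genes on the deposited TPM, which is per length. Ago2 had the highest mean TPM of the 7 genes in both genotypes, 72.0 ± 44.2 (SD, n = 4) in wild-type and 89.6 ± 14.1 (SD, n = 4) in ΔAgo2. It lay above 82.9% to 88.0% of tested genes in the ΔAgo2 libraries. In wild-type it lay above 65.1% (replicate 4) to 91.25% (replicate 3) of them. In ΔAgo2 the order went on with Ptk2 at 62.7 ± 3.16, Chrac1 at 34.6 ± 4.13, Trappc9 at 26.7 ± 4.04, Ptp4a3 at 14.5 ± 2.90, Slc45a4 at 14.2 ± 3.81 and Dennd3 at 6.02 ± 1.07 TPM. The library ranges of neighbours in that order were clear of each other except for Ptp4a3 and Slc45a4. In wild-type the order was Ago2, Ptk2 at 41.3 ± 18.2, Trappc9 at 34.3 ± 11.5, Chrac1 at 33.9 ± 12.7, Ptp4a3 at 21.8 ± 8.47, Slc45a4 at 14.3 ± 5.68 and Dennd3 at 4.21 ± 2.34 TPM, and of neighbours in the order only Slc45a4 and Dennd3 had ranges that did not overlap.

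The first place of Ago2 depends on the length used. The deposited TPM divides by the union of all annotated exons, which is 14031 bp for Ago2, 11803 bp for Ptk2 and 2353 bp for Chrac1. The longest coding transcripts are 13800, 4675 and 871 bp in the same order. On that length Ptk2 came first, at 71.4 ± 31.8 (SD, n = 4) in wild-type and 108 ± 5.46 in ΔAgo2. Chrac1 came second, at 62.2 ± 22.6 and 63.7 ± 7.69, and Ago2 came after it, at 50.2 ± 31.1 and 62.0 ± 9.98, on the same scale as TPM. Which transcripts were used in these cells was not analysed here, so the order of these 3 genes is not settled by these counts.

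**Figure D4:**
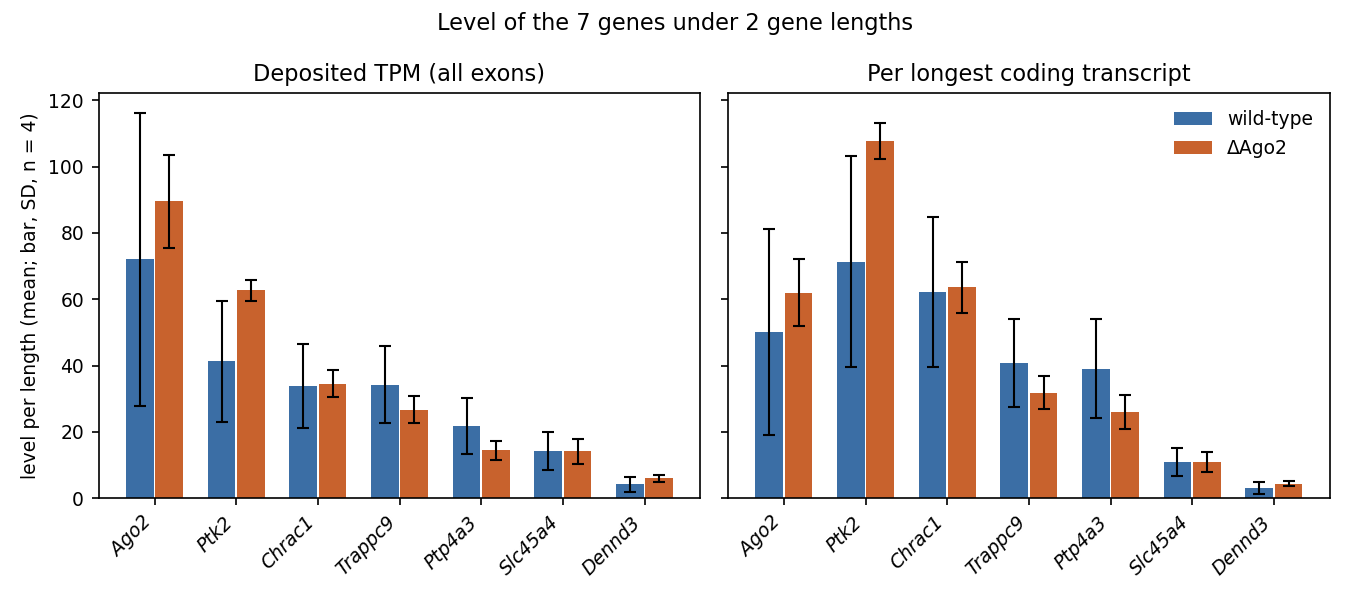
Mean level of the 7 genes per length in wild-type and ΔAgo2 libraries, on the deposited TPM (left, union of exons) and on the length of the longest coding transcript (right), with bars of SD (n = 4) and a linear axis from 0. Ago2 is highest on the left, and Ptk2 is highest on the right.

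The count of Ago2 relative to each neighbour does not depend on the scaling of a library. Of the 6 such ratios, 0 separated the genotypes. Ago2 per Ptk2 count was 1.64, 1.83, 2.83 and 1.57 in wild-type replicates 1 to 4 and 1.98, 1.47, 1.74 and 1.58 in ΔAgo2 replicates 1 to 4, the narrowest of the 6 ratios in both genotypes. Ago2 per Chrac1 count, for the pair with overlapping ends, was 12.9, 10.98, 43.6 and 2.43 in wild-type and 16.8, 14.2, 19.3 and 12.2 in ΔAgo2. Wild-type replicate 3 therefore held the highest Ago2 and the lowest Chrac1, and replicate 4 the lowest Ago2 and the highest Chrac1. The ranges of the other ratios in wild-type enclosed or overlapped those of ΔAgo2, for example 0.678 to 6.02 against 4.45 to 6.76 for Ago2 per Trappc9 count.

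Few other genes of the interval were counted. Within 1 Mb of the Ago2 start, 31 genes are annotated, 15 of them had at most 3 counts in every library, and 13 were tested, of which 0 were called and 0 had an unadjusted p under 0.05. Beside the 7 genes and Peg13, the tested genes were the pseudogenes Gm7908, Gm10362, Gm7935 and Gm15387 and the non-coding RNA Gm49066, each with 183 counts or fewer in all, and reads of a pseudogene cannot be told from those of its parent gene. Kcnk9, a potassium channel gene of the imprinted domain, had 3 counts in all 8 libraries, Gpr20 had 0 and Mroh5 1. Farther than 1 Mb from the Ago2 start, Adgrb1 had 3 counts, Fam135b 2 and Col22a1 50, and none of them passed the filter.

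Within 5 Mb of Ago2, 95 genes were tested. The log2 fold change was below 0 for 76 of the 95, with a median of -0.42, against 58.8% below 0 and a median of -0.11 over all tested genes. Without wild-type replicate 4, 50 of the 95 were above 0 and 45 below, with a median of 0.0055, against 54.1% below 0 over all tested genes. With the GC correction 66 of the 95 were below 0, with a median of -0.13. Over all tested genes that correction left 58.4% below 0, with a median of -0.08. Of the 95 genes, 0 were called, 5 had an unadjusted p under 0.05 (7.34% over all tested genes) and 5 had groups that did not overlap (6.07% over all tested genes). Along the whole of chromosome 15, 570 genes were tested, 2 were called (0.295% over all tested genes), and the median log2 fold change was -0.21. Of the 570, 49 had an unadjusted p under 0.05 and 28 had groups that did not overlap, against 7.34% and 6.07% over all tested genes.

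**Figure D5:**
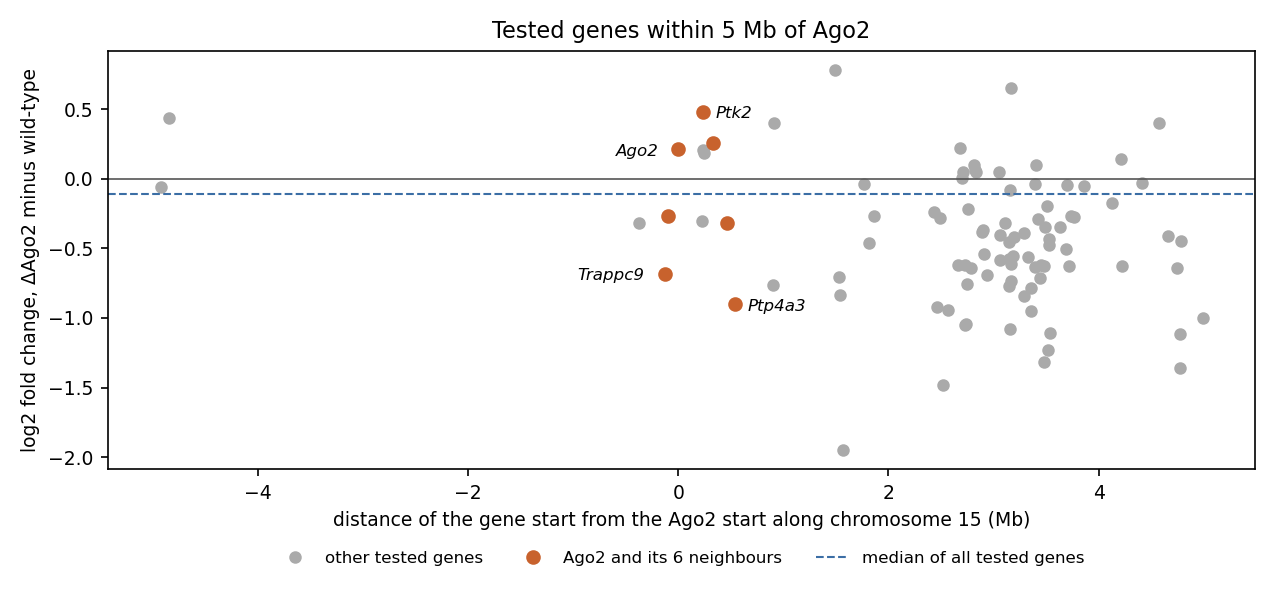
Log2 fold change (ΔAgo2 minus wild-type, all 8 libraries) of the 95 tested genes within 5 Mb of Ago2 against the distance of their start from the Ago2 start, in Mb. The 7 genes are marked, the dashed line is the median of all tested genes, and 76 of the 95 points lie below 0.

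Partners and relatives of the 7 genes were read from 7 fixed lists, also chosen with earlier results of these data known. Of the genes on these lists, 65 of 70 were tested and 0 were called by edgeR's quasi-likelihood test. An unadjusted p under 0.05 was found for 3 genes that were higher and 3 that were lower in ΔAgo2 (7.34% of all tested genes passed), and 4 had groups that did not overlap (6.07% of all tested genes). DESeq2 called 3 of the 65, Tns1, Slc45a3 and Cnnm1, as did limma with sample weights, and limma on either TPM scale called 0. The sample weights were 0.0689 for wild-type replicate 4, 5.8 and 5.09 for ΔAgo2 replicates 1 and 2, and 0.432 to 1.42 for the rest. Of the Argonaute paralogs and RISC partners, 9 of 9 were tested, 6 were above 0 and 3 below, and the median log2 fold change was 0.15. The 2 with the smallest p were Tarbp2, a partner of Dicer, at -0.68 (adjusted p = 0.738), and Tnrc6a, a GW182 protein that Argonautes recruit, at 0.78 (adjusted p = 0.739). With wild-type replicate 4 left out they were at -0.0817 and 0.46. Among the paralogs, Ago1 had 0.37 (adjusted p = 0.740), Ago3 0.11, which changed sign without wild-type replicate 4, and Ago4 -0.02, which changed sign under several settings.

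The list for Chrac1 held its CHRAC and histone-fold partners and also Pole and Pole2, which are not CHRAC subunits. Of this list 6 of 6 were tested, 5 were above 0, with Pole and Pole2 among them, and the median was 0.15. Pole2, a DNA polymerase epsilon subunit, had 0.44 (adjusted p = 0.783), which changed sign with the GC correction, and Smarca5, the remodelling ATPase, had 0.37 (adjusted p = 0.858), and 0.0306 without wild-type replicate 4. Of the other TRAPP subunits, 13 of 15 were tested, 5 were above 0 and 8 below, and the median was -0.12. Trappc1, a core subunit, had -0.86 (adjusted p = 0.664), Trappc2l -0.60 (adjusted p = 0.748), and Trappc10, the other subunit typical of TRAPPII, -0.12 (adjusted p = 0.919), which changed sign when libraries were scaled by their totals alone. Trappc1 was at -0.38 and Trappc2l at -0.0112 once wild-type replicate 4 was left out.

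Of the focal adhesion genes around Ptk2, 15 of 15 were tested, 6 were above 0 and 9 below, and the median was -0.03, which was 0.33 without wild-type replicate 4. Tns1, an actin-binding adaptor, had 2.04 ± 1.16 CPM (mean ± SD, n = 4) in the wild-type libraries and 9.09 ± 2.68 in the ΔAgo2 libraries, with a log2 fold change of 2.17 (adjusted p = 0.120), and its groups did not overlap. It passed with DESeq2 (adjusted p = 0.000183, Benjamini-Hochberg), with limma and sample weights, with the GC correction with or without the replicate block, with any gene that had a count kept, and without wild-type replicate 4 (log2 fold change 2.64, adjusted p = 0.0172, edgeR), while other settings did not call it. Tln1, which links integrins to actin, had -1.13 (adjusted p = 0.637), and -0.49 without wild-type replicate 4. The paralog Ptk2b had 0.69 (adjusted p = 0.779), and 0.36 without wild-type replicate 2. Itgav, an integrin chain named here after its values were seen, was the other gene of the list whose groups did not overlap, at 0.88 (adjusted p = 0.678).

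Of the DENN-domain genes and Rab12, 15 of 16 were tested, 5 were above 0 and 10 below, and the median was -0.15. Dennd6b had -0.56 (adjusted p = 0.739) and Dennd2a 0.45 (adjusted p = 0.775), which was 0.82 without wild-type replicate 4 and 0.26 without replicate 2. Of the Slc45 family, Slc45a1 had 1 count and Slc45a2 had 0, so Slc45a3 was the only relative of Slc45a4 tested. Slc45a3 had 3.45 ± 2.09 CPM (mean ± SD, n = 4) in the wild-type libraries and 0.597 ± 0.0478 in the ΔAgo2 libraries, with groups that did not overlap and a log2 fold change of -2.53 (adjusted p = 0.107). It passed with DESeq2 (adjusted p = 0.000114, Benjamini-Hochberg), with limma and sample weights, with any gene that had a count kept, and in edgeR without wild-type replicate 2 (adjusted p = 0.0384) or replicate 4 (adjusted p = 0.0497), and did not pass elsewhere.

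Of the PRL phosphatases and the CNNM magnesium transport proteins that they bind, 6 of 6 were tested, 4 were above 0 and 2 below, and the median was 0.14. Cnnm1 had 2.59 ± 0.985 CPM (mean ± SD, n = 4) in the wild-type libraries and 7.16 ± 1.15 in the ΔAgo2 libraries, with a log2 fold change of 1.47 (adjusted p = 0.254), and its groups did not overlap. It passed with DESeq2 (adjusted p = 0.00363, Benjamini-Hochberg) and with limma and sample weights (adjusted p = 0.0344), and under no other setting. Cnnm2 had 0.29 (adjusted p = 0.823). Ptp4a2 had 0.10 (adjusted p = 0.939), which changed sign with the GC correction, and Ptp4a1 had 0.18 (adjusted p = 0.962), a value that is uncertain because another annotated gene carries the same symbol and overlaps it.

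The profile of Ago2 over the 8 libraries was compared with those of 8963 genes with a mean of at least 10 CPM, by the root mean square difference of centred log2 CPM. The 5 most alike were Esyt2 (0.103), Pak2 (0.111), Sbf2 (0.119), Nsd3 (0.125) and Bicral (0.134), against a median of 0.701 over all genes, and they lie on chromosomes 12, 16, 7, 8 and 17. Of the neighbours, Ptk2 was nearest, with a difference of 0.280 and rank 438, while Trappc9, Chrac1, Slc45a4 and Ptp4a3 had differences of 1.04 to 1.13, above the median. That order turned without wild-type replicate 4: Trappc9 was the nearest neighbour, at 0.247 (rank 926), and Ptk2 followed at 0.289 (rank 1794). Dennd3 had a mean under 10 CPM and was not ranked. The 5 genes most alike had nearly the same differences, 0.110 to 0.134, in the 7 other libraries, at ranks 7 to 38, so none was among the nearest 5. With the GC correction Sbf2, Bicral and Nsd3 were at ranks 12, 25 and 42, and Esyt2 and Pak2 at ranks 1268 and 2169.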

How the data were processed

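RNA-seq of 4 wild-type and 4 ΔAgo2 LLC libraries was used, grouped by their labels. The authors purified total RNA, made stranded mRNA libraries, sequenced them paired-end, aligned the reads to ribosomal RNA and then to mm10 (STAR is named in the submitters' processing notes), and counted reads per gene with featureCounts. The authors deposited whole-number counts without normalization and TPM values. The annotation release and strand setting of the gene counting are not given in the sources used here. The lengths implied by the deposited TPM matched the union of exons of GENCODE M21 within 1% for 99.6% of 7466 genes, and within 0.162% for the 7 genes, so that annotation gave symbols, positions, lengths and GC content, and 93 identifiers had no match.

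All genes were fitted with edgeR 4.0.16 in R 4.3.3 (filterByExpr, TMM, quasi-likelihood test, genotype as the only factor, two-sided). The standard error is the log2 fold change over the square root of F. An adjusted p under 0.05 was a call, and intervals are 95%. CPM values use TMM-scaled library sizes summed over the tested genes, and log2 CPM a prior count of 2. A gene with at most 3 counts in every library was treated as at the floor. These errors cover the spread between libraries. ΔAgo2 replicates 1 and 2 differed by a chi-square of 23.2 per gene, against 92.2 to 128 for the other ΔAgo2 pairs, which is above sampling noise, and were counted separately.

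The genes named are the 7 genes, the tested genes within 1 Mb of Ago2, the 2 genes of each list with the smallest p, close paralogs, and the 5 genes with the profile most like that of Ago2. The members and lists were chosen with earlier results of these data known. In the lists, Trappc14 and Tsnare1 were matched to no gene. Alternatives were DESeq2 1.42.0, RLE factors, library size alone, 2 other filters, limma 3.58.1 with sample weights, limma on log2(TPM + 1) and log2(TPM + 0.1), the replicate block, a GC correction by lowess (span 0.3) with and without the block, and each library left out in turn. The order of the genes on the longest coding transcript was added after the data were seen. Methods were tested on simulated counts. For the edgeR fit these had the same spread in both genotypes and no trend with GC content, so the test does not cover those features of the data. The result for 1 marker gene, and the sum of its list, are not reported here.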

Additional observations from a re-analysis of the deposited data

Results flagged for a closer look

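In groups of 4 libraries, a library was singled out where its gap to the nearest other, divided by the range of the group on the log2 CPM scale, exceeded Dixon's critical value. This held for 7 of 76 groups, from the 38 genes named above, and chance gives about 1 in 20 groups. Ptk2 in ΔAgo2 had a ratio of 0.877, with replicate 3 above the others, and this library does not carry the separation of the genotypes, since the nearest ΔAgo2 value is that of replicate 1. Wild-type replicate 4 was highest for Tarbp2 (0.860) and for the pseudogene Gm7935 (0.838). ΔAgo2 replicate 3 was lowest for Tns1 (0.907) and for Smarca5 (0.897). The ratio does not give the size of the gap: the ΔAgo2 libraries ran from 5.10 to 10.8 CPM for Tns1 and from 122 to 131 for Smarca5. Ptk2b was singled out in both genotypes, with wild-type replicate 2 lowest (0.851) and ΔAgo2 replicate 4 lowest (0.885). No cause was tested for any of these.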

How the results depend on the processing

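The replicate numbers did not pair the libraries: same-numbered libraries deviated from their group means with correlations of -0.14, -0.05, 0.38 and 0.03, and 1 of the 4 numbers had its own number as best partner. A fit with the replicate block called 18 of all tested genes in place of 42 and 0 of the 7 genes. The count of 42 was 399 with DESeq2, 143 with any gene that had a count, 3 with a mean of at least 100 counts, 257 with sample weights, 15 on log2(TPM + 1), 74 with the GC correction and 75 with that and the block. Leaving out 1 library gave 1 (without ΔAgo2 replicate 1) to 113 (without wild-type replicate 4), with 12 and 78 without wild-type replicates 1 and 2, and 7 without each of the other ΔAgo2 libraries. The share of calls that were higher in ΔAgo2 was 26.2%, and 53.3% and 44.7% on log2(TPM + 1) and log2(TPM + 0.1), 40.5% with sample weights, 39.2% with the GC correction and 38.7% with that and the block. It was 41.7%, 11.5% and 37.2% without wild-type replicates 1, 2 and 4. Both TPM scales moved the median of all tested genes from -0.11 to 0.15 and 0.22, so signs there are read against that shift. The causes of these changes were not tested.

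Chrac1 reversed to 0.0741 with sample weights, 0.11 on both TPM scales, 0.0167 with the GC correction and 0.0692 with that and the block. Slc45a4 reversed to 0.26 with sample weights, and its sign changed to 0.0332 on log2(TPM + 1) and 0.0376 on log2(TPM + 0.1). On both TPM scales Chrac1 and Slc45a4 stayed below the median of all tested genes (0.15 and 0.22). They also lay below that median (-0.11) in the edgeR fit of all 8 libraries, so read against it neither reversed there. With 1 library left out, Ago2 ran from -0.0473 to 0.60, Chrac1 from -0.51 to 0.19 and Slc45a4 from -0.49 to 0.23, each reversed only without wild-type replicate 4. With sample weights Peg13 reversed to 0.17, Ago3 to -0.0238, Trappc10 to 0.20 and Ptp4a2 to -0.0605. With the GC correction Pole2 reversed to -0.0310, Ptp4a2 to -0.14 and Pak2 to -0.0336, and with that and the block Ptp4a2 to -0.13, Pak2 to -0.00237 and Ago4 to 0.22. With library size alone, Ago4 was 0.0442 and Trappc10 0.00657, and with the block Ago4 was 0.36. On log2(TPM + 1) and log2(TPM + 0.1), Ago4 was 0.32 and 0.55, and Trappc10 0.10 on both. Against the median of all tested genes, Ago4 lay above and Trappc10 below on both scales, as in the edgeR fit of all 8 libraries.

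With 1 library left out, Peg13 ran from -0.53 to 0.10, Ago3 from -0.25 to 0.55, Ago4 from -0.34 to 0.32, Trappc10 from -0.23 to 0.0116, Ptp4a1 from -0.1915 to 1.02, Ptp4a2 from -0.0555 to 0.23, Pak2 from -0.10 to 0.51, Nsd3 from -0.0884 to 0.49, Bicral from -0.12 to 0.53, Gm49066 from -0.0100 to 0.36 and Gm10362 from -0.0248 to 0.86. The median within 5 Mb was 0.0521 with sample weights and ran from -0.55 to 0.0055 with 1 library left out. The median of the list for Chrac1 moved to 0.51 and 0.55 on the TPM scales. The focal adhesion median moved to 0.27 with sample weights, 0.24 on both TPM scales, 0.29 with the GC correction and 0.31 with that and the block, and ran from -0.17 to 0.33 with 1 library left out. The Slc45 value was -1.20 on log2(TPM + 1). On the longest coding transcript Ago2 ranked 3 in both genotypes. Of the 5 profiles most like that of Ago2, 0 were kept among the nearest 5 with the GC correction and 0 without wild-type replicate 4, where their ranks were 7 to 38 of 8963. Of the genes on the partner and family lists, Tns1, Slc45a3 and Cnnm1 passed under some settings and not in the edgeR fit of all 8 libraries.

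With 4 libraries a genotype and the spread of these wild-type libraries, the intervals of the 7 genes were wide, and differences within them are not excluded here.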
